A study of Mus musculus with 24 samples.

Results

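The genes of the respiratory chain and of ATP synthase, whose products carry out oxidative phosphorylation in the mitochondrion, were followed through a map of H3K4me3, trimethylation of lysine 4 on histone H3. Members were chosen by name: protein-coding genes of the GENCODE vM21 basic annotation on chromosomes 1 to 19 and X whose names start with Nduf, Sdha to Sdhd, Uqcr, Cox4i, Cox5, Cox6, Cox7, Cox8 or Atp5. The rule took 98 of 21755 protein-coding genes, spread over 19 of 20 chromosomes, under 97 names, because Atp5o stands for a pair of gene models. By role they were 38 genes named for complex I, 4 for complex II, 8 for complex III, 18 for complex IV and 16 for complex V, with 12 assembly factors (Ndufaf and Sdhaf genes) and 2 others. The others were Atp5s, a coupling factor of ATP synthase, and the second Atp5o model.

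The cells were C127, a mouse mammary epithelial line, crosslinked with formaldehyde before chromatin immunoprecipitation. The series held 24 samples in 12 groups, and the H3K4me3 group had 3 replicates. The remaining 21 samples (inputs, and ChIP of CFP1, KDM2B, RNA polymerase II, GFP alone, and GFP-tagged CFP1 and its mutants) were not used here. The values come from a single list of 13451 H3K4me3 peaks that were found in every replicate, given as positions on mm10.

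H3K4me3 marks the start sites of active genes and of many genes with CpG islands, stretches of DNA rich in the dinucleotide CpG. Complexes I to IV pass electrons from NADH and succinate to oxygen while pumping protons across the inner mitochondrial membrane, and complex V (ATP synthase) uses the proton gradient to make ATP. Most subunits are needed in every cell, but several subunits of complex IV exist as paralogs, with a form used in nearly all tissues and a form restricted to heart and skeletal muscle, testis or lung. Transcription factors known to act on this gene set include NRF1, GABPA (an ETS factor that is also called NRF2), YY1 and the oestrogen-related receptors (ERR).

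Because the list held one merged result without heights, no value below has a spread between replicates, and the read depth behind the peaks is unknown. Intervals are 95% intervals over genes (Wilson for shares, exact order statistics for medians) and cover counting error only. Of all peaks, 13447 lay on the 20 chromosomes used. The epithelial keratin genes Krt8 and Krt18 and the adhesion genes Epcam and Cdh1 had no peak at a transcription start site (TSS), whereas the mesenchymal gene Vim had a peak of 7153 bp. The labelled epithelial origin was therefore not seen in these 4 markers, and its part in the results below was not tested. The muscle genes Ckm, Myod1 and Myh7 and the germ line genes Ddx4, Dazl and Prm1 were without a peak as well.

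Promoter sequences of 8 members are shown first, since the results turn on their CpG content, the width of their peaks and motifs in them. They were read from the RefSeq genome GRCm38.p6, the build of the peak list, on the strand of the gene. The first 6 run from 120 bases before the TSS through 30 bases from it on, with every CpG in capitals. Atp5d had the widest peak of the set and Uqcrc1 the narrowest. Cox6a1 and Cox6b1 are the widely used forms of a complex IV subunit, and Cox6a2 (heart and muscle) and Cox6b2 (testis) are their restricted forms. The Atp5d stretch (chr10:80141337-80141486, plus strand) held 15 CpGs and the Uqcrc1 stretch (chr9:108936513-108936662, plus strand) 8. The Cox6a1 stretch (chr5:115348952-115349101, minus strand) held 17 CpGs against 1 in that of Cox6a2 (chr7:128206358-128206507, minus strand). The Cox6b1 stretch (chr7:30626122-30626271, minus strand) held 11 against 7 in that of Cox6b2 (chr7:4753065-4753214, minus strand).
Atp5d: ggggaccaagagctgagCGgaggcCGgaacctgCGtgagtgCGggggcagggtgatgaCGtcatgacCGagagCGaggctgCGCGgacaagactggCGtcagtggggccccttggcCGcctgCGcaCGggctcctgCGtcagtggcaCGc
Uqcrc1: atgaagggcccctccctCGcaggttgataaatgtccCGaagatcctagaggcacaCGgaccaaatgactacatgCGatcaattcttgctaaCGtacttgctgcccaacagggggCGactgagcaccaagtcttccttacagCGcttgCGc
Cox6a1: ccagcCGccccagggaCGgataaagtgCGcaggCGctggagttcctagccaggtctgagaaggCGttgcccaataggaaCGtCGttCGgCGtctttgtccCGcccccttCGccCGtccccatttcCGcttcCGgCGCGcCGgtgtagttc
Cox6a2: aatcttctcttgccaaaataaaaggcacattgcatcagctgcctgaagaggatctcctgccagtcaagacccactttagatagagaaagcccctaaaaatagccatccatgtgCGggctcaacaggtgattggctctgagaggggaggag
Cox6b1: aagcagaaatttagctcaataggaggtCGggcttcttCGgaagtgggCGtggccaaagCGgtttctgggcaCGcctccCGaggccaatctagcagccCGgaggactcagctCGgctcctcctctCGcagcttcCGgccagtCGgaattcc
Cox6b2: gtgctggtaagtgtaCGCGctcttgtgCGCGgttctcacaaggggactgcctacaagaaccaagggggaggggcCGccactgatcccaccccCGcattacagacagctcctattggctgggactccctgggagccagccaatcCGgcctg

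The other sequences begin 250 bases before the TSS and are those of Uqcr11 (chr10:80406801-80407080, minus strand) and Atp5l (chr9:44920713-44920992, minus strand), which held both an NRF1 and an ETS motif. Capitals mark matches to the NRF1 core (GCGCATGC), the ETS core (CCGGAAG) and the ERR element (AAGGTCA) on either strand. Positions count bases from the TSS, which is 0. In Uqcr11 the ETS match started at -57 and the NRF1 match at 5. In Atp5l the NRF1, ETS and ERR matches started at -240, -212 and -13, and a further ETS match at 24 ran past the end of the stretch shown.
Uqcr11: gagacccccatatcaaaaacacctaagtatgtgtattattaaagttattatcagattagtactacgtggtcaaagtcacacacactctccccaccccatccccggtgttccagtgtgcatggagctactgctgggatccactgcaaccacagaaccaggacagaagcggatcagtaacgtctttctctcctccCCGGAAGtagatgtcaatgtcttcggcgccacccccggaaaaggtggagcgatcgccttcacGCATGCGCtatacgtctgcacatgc
Atp5l: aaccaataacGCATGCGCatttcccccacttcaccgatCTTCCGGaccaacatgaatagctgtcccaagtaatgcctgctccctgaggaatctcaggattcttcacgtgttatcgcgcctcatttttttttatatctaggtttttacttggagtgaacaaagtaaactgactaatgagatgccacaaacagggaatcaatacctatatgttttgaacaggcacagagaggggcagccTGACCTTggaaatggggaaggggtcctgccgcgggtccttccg

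H3K4me3 was found at the start of nearly every respiratory chain gene that is used in all tissues and at none of their paralogs of restricted use. A peak within 250 bp of a TSS was present at 87 of the 98 members (88.8%, 95% CI 81.0 to 93.6), against 49.4% of all protein-coding genes. Members mostly had CpG island promoters, and 70.2% of all protein-coding genes with an island and 77.6% of those with a longer and denser island had a peak. Among the 76 subunit genes in general use, 75 had a peak (98.7%, 95% CI 92.9 to 99.8). Among the 8 restricted paralogs, 0 did, which allows a share of up to 32.4% by the Wilson interval. Of these 8, 5 had an island and 0 had one of the longer and denser kind. Among all protein-coding genes without an island, 5.02% had a peak, a share that the interval of the 8 paralogs held. It is a like comparison only for the paralogs without an island. The share over genes with an island but none of the longer and denser kind was not computed. Of the 12 assembly factors, 11 had a peak. Each of the 87 genes had its own peak, and no member had separate peaks at different TSSs.

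By complex, 36 of 38 genes named for complex I had a peak, as did all 4 of complex II, all 8 of complex III, 11 of 18 of complex IV and all 16 of complex V. The 7 complex IV genes without a peak were all restricted paralogs. In complex I the genes without one were Ndufa13 and Ndufa4l2. The exception among the assembly factors was Sdhaf1, which encodes a factor for the iron-sulfur subunit of complex II. The second Atp5o model, annotated with an unknown start and 2750 bp from the nearest peak, also lacked a peak, whereas the Atp5o gene itself had one of 2305 bp.

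Ndufa13, a complex I subunit also known as GRIM-19, and Sdhaf1 lay next to a peak rather than away from one. The annotated start of Ndufa13 at 69902558 on chromosome 8 was 416 bp from a peak of 2031 bp (chr8:69900112-69902142). RefSeq places the start 538 bp further downstream, at 69902020, inside that peak. The start of Sdhaf1 at 30323895 on chromosome 7 was 637 bp from a peak of 2254 bp (chr7:30321005-30323258), and the RefSeq start, 1520 bp away at 30322375, was again inside it. With RefSeq starts added, 89 of 98 members had a peak, and so did 89 when the distance was extended to 1000 bp. Just inside the limit of 250 bp were Ndufb11, with a peak 80 bp from its TSS, and Atp5j2, with a peak 94 bp from its most upstream TSS.

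The restricted paralogs were set beside forms in general use, which encode the same subunit or, for Cox7a2l and Ndufa4, a related protein. Cox4i2 (lung), Cox6a2, Cox7a1 and Cox8b (heart and skeletal muscle), and Cox6b2, Cox7b2 and Cox8c (testis) had no peak, and neither did Ndufa4l2, a relative of Ndufa4 that is induced by hypoxia. Ndufa4 itself was named for complex I and is now counted with complex IV. The nearest peak lay 1195 bp from the TSS of Ndufa4l2, 8353 bp from Cox7a1, 10295 bp from Cox6b2, 12039 bp from Cox4i2, 16000 bp from Cox8b, 19776 bp from Cox8c, 30155 bp from Cox6a2 and 617746 bp from Cox7b2. Ndufa4l2 was thus the only one of the 8 with a peak within 5000 bp.

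All 8 partners in general use had a peak. Cox8a had the widest, at 4702 bp, followed by Cox4i1 at 3479 bp and Cox7a2l, a relative of Cox7a2 that joins complexes III and IV, at 3345 bp. Ndufa4 had 3020 bp and Cox6a1 had 2620 bp. Cox7a2 had 2407 bp, Cox6b1 had 2186 bp and Cox7b, on the X chromosome, had 1491 bp. Of these only Cox8a, Cox4i1 and Cox7a2l were above the median width of all protein-coding genes with a peak, 3254 bp.

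The promoters of the paralogs differed in CpG content in the same direction in every pair. Within 250 bp of the TSS, 9 of 9 pairs had more CpGs at the gene in general use. The pairs were not independent, since Cox7a1 and Cox8a were each used repeatedly. The largest gap was between Cox4i2 with 23 CpGs and Cox4i1 with 76, followed by Cox6a2 with 6 and Cox6a1 with 57. The smallest was between Cox7b2 with 13 and Cox7b with 18. Cox8b and Cox8c had 11 and 19 CpGs against 41 at Cox8a, and Cox7a1 had 12 against 39 at Cox7a2 and 35 at Cox7a2l. Cox6b2 had 16 against 28 at Cox6b1, and Ndufa4l2 had 6 against 26 at Ndufa4. GC content was higher at the gene in general use in 8 of 9 pairs. In the remaining pair Cox6b2 had 57.3% and Cox6b1 54.5%, so the CpGs and the GC content ran in opposite directions there.

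**Figure D1:**
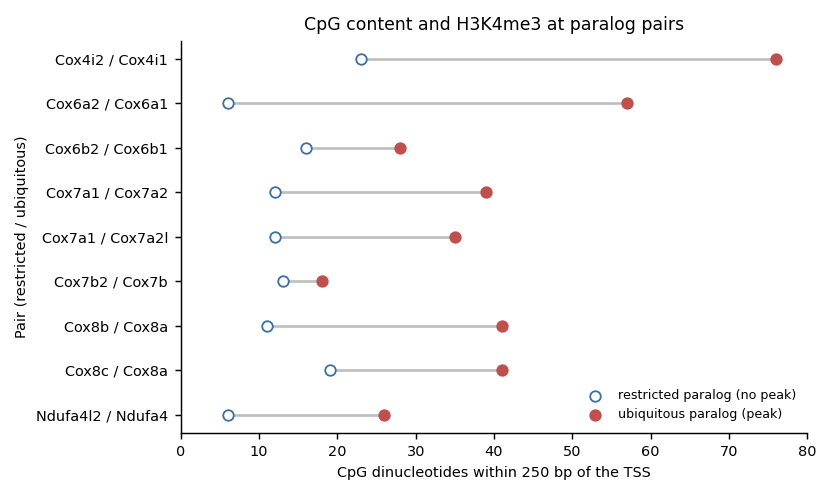
CpG dinucleotides within 250 bp of the TSS (horizontal axis) for each pair of a restricted and a generally used paralog (vertical axis). Open circles are restricted genes, which had no H3K4me3 peak, and filled circles are generally used genes, which had one; the filled circle lies to the right in 9 of 9 pairs, from 5 CpGs apart (Cox7b2 and Cox7b) to 53 apart (Cox4i2 and Cox4i1).

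CpG islands were defined by windows of 200 bp, a minimum GC fraction of 0.5 and a minimum ratio of observed to expected CpGs of 0.6. They lay at the TSSs of 93 of 98 members (94.9%, 95% CI 88.6 to 97.8), against 68.1% of all protein-coding genes. All 76 subunit genes in general use had one. All 87 members with a peak had an island as well (95% CI 95.8 to 100), close to the 96.8% of all protein-coding genes with a peak, while 6 had an island and no peak, none had a peak without an island, and 5 had neither. The 6 were Ndufa13 and the paralogs Cox4i2, Cox6b2, Cox7a1, Cox7b2 and Cox8c. The islands of these 5 paralogs were short, from 206 bp at Cox7a1 to 372 bp at Cox4i2, against a median of 868 bp (95% CI 807 to 956) over the subunit genes in general use. None of the 8 restricted paralogs had an island by stricter limits (500 bp, GC 0.55, ratio 0.65), whereas 97.4% of the subunit genes in general use did, against 58.0% of all protein-coding genes and 91.1% of those with a peak. The 5 with neither were Cox6a2, Cox8b, Ndufa4l2, Sdhaf1 and the second Atp5o model.

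Ndufa13 and Sdhaf1 differed in sequence at their annotated starts. Ndufa13 had an island of 1701 bp and 51 CpGs within 250 bp of its TSS, and Sdhaf1 had no island there and 3 CpGs. Atp5j2, the f subunit of ATP synthase, also had 3 CpGs around its most upstream TSS, and its peak of 2856 bp began 94 bp downstream. Where a member had both, the peak was wider than the island in 87 of 87 genes, against 98.3% over all protein-coding genes with both, and covered the whole island in 81 (93.1%, 95% CI 85.8 to 96.8), against 87.7%.

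The authors discarded reads without a unique position in the genome, which bears on promoters that recur elsewhere. None of the 11 members without a peak had such a promoter by a limit of 10%, which only 10 of all 98 members passed. The share over all protein-coding genes was not computed, and the part of recurring sequence in missing peaks was not tested. Over 10% of the 32-base words within 250 bp of the TSS occurred elsewhere on the chromosomes at 10 members, led by Ndufb11 (37.4%), Ndufb4 (34.7%), Ndufab1 (30.4%), Cox5b (22.3%), Ndufs7 (19.4%) and Cox7c (17.4%), and all 10 had a peak. The others were Ndufa7 (12.8%), Cox7a2l (12.3%), Uqcr11 (12.1%) and Atp5l (11.3%).

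The peaks of the respiratory chain genes were of middling width. The median was 2984 bp (n = 87, 95% CI 2653 to 3367), with quartiles of 2323 and 3922.5 bp, against 3254 bp (95% CI 3221 to 3284) over all 10747 protein-coding genes with a peak. Of the 87 peaks, 37 were wider than that genome-wide median. The widths ran from 1435 bp at Uqcrc1, at percentile 5.96 of all these genes, to 14528 bp at Atp5d, at percentile 99.8. Of the member peaks, 76 were wider than 2000 bp, 22 wider than 4000 bp and 6 wider than 5000 bp.

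The median width by complex was lowest for complex IV and highest for complex V, with intervals that overlapped. It was 2900 bp for complex I (n = 36, 95% CI 2447 to 3669), 3124 bp for complex II (n = 4), 3208 bp for complex III (n = 8, 95% CI 1435 to 4961), 2407 bp for complex IV (n = 11, 95% CI 1816 to 3479), 3726.5 bp for complex V (n = 16, 95% CI 2623 to 4667) and 2918 bp for the assembly factors (n = 11, 95% CI 1863 to 5088). Complex IV was thus near the lower quartile of all protein-coding genes with a peak, 2410.5 bp, and complex V above their median. The order did not hold among peaks that reached the start of only 1 protein-coding gene. There the median was 3056 bp for complex III (n = 5), 2880 bp for complex V (n = 10), 2658 bp for complex I (n = 22), 2406 bp for complex IV (n = 10) and 1953 bp for the assembly factors (n = 5), and the single such complex II peak, that of Sdhb, had 2315 bp.

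**Figure D2:**
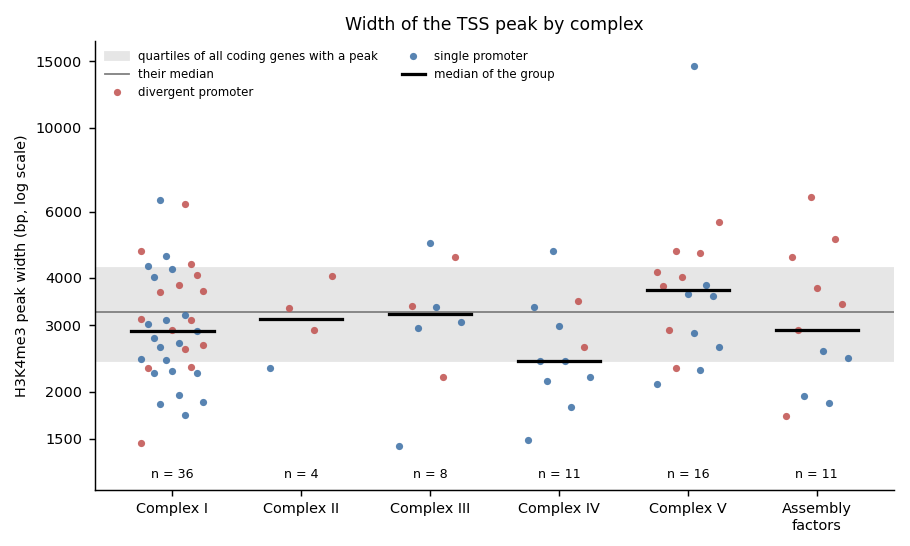
Width of the H3K4me3 peak (vertical axis, bp, log scale) at each gene with a peak, by complex (horizontal axis), with divergent promoters in red and single ones in blue; black bars are group medians and the grey line and band are the median and quartiles of all protein-coding genes with a peak. Group medians ran from 2407 bp in complex IV to 3726.5 bp in complex V, and Atp5d stood apart at 14528 bp.

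In complex I, the entry point for electrons from NADH, the widest peaks were those of the accessory subunit genes Ndufb10 (6451 bp), Ndufa11 (6270 bp) and Ndufa7 (4723 bp). Each of these also reached the start of a neighbouring gene. The peak of Ndufb10 spanned the ribosomal protein gene Rps2 and Rnf151 and was the only complex I peak to reach the starts of 3 protein-coding genes. The narrowest were at Ndufb11 (1460 bp), Ndufc2 (1734 bp) and Ndufa12 (1856 bp).

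Core subunits, which hold the flavin and the iron-sulfur clusters or line the quinone site, were looked at after the widths were seen, and their values are therefore a description. Ndufs7 had 4580 bp, Ndufs1 4353 bp, Ndufs8 4294 bp, Ndufv2 4019 bp and Ndufs3 3828 bp, all above the genome-wide median. Ndufv1, the flavoprotein that takes electrons from NADH, was below it at 2270 bp. Of these genes, Ndufs1 and Ndufs3 had a divergent promoter.

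In complex II, which is also the succinate dehydrogenase of the citric acid cycle, the membrane anchor genes Sdhd (4056 bp) and Sdhc (3330 bp) had wider peaks than the flavoprotein gene Sdha (2918 bp) and the iron-sulfur gene Sdhb (2315 bp). Sdhb was the only one of the 4 whose promoter was not divergent. In complex III, the cytochrome bc1 complex, the widest peaks were at the small subunit genes Uqcr11 (4961 bp), Uqcrh (4543 bp) and Uqcr10 (3367 bp). The narrowest were at the core protein gene Uqcrc1 (1435 bp), at Uqcrb (2187 bp) and at Uqcrfs1 (2949 bp), which encodes the Rieske iron-sulfur protein. The other core protein gene, Uqcrc2, had 3056 bp. The pair of core genes thus stood far apart.

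In complex IV, cytochrome c oxidase, Cox8a, Cox4i1 and Cox7a2l had the widest peaks, as given above, and Cox7b (1491 bp), Cox7c (1816 bp) and Cox5b (2137 bp) the narrowest. The peak of Cox4i1 reached the starts of Emc8, a subunit of an endoplasmic reticulum membrane complex, and Gm27021.

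In complex V, Atp5d, the delta subunit of the F1 part, had a peak of 14528 bp (chr10:80140680-80155207). It extended 777 bp upstream and 13750 bp downstream of the TSS, past the end of the 7187 bp gene, and reached the start of Midn. How much of its width belonged to either gene cannot be told apart. Atp5c1 (5632 bp), the gamma subunit of the rotating stalk, and Atp5b (4713 bp), the catalytic beta subunit, followed. The narrowest were at Atp5e (2097 bp), Atp5k (2283 bp) and Atp5o (2305 bp). Of the F1 subunit genes, again grouped after their values were seen, Atp5d, Atp5c1, Atp5b and Atp5a1 (4144 bp) were above the genome-wide median and Atp5e was below it. Atp5g1, Atp5g2 and Atp5g3, which encode the same mature c subunit of the membrane ring, had peaks of 3586, 3832 and 3633 bp on 3 different chromosomes. All 3 were above the genome-wide median.

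Among the assembly factors, which help to build the complexes and are not part of them, the widest peaks were at Ndufaf3 (6563 bp, with the start of Dalrd3), Sdhaf2 (5088 bp), which is needed to attach the flavin to Sdha, and Ndufaf8 (4554 bp). The narrowest were at Sdhaf3 (1728 bp), Sdhaf4 (1863 bp) and Ndufaf1 (1953 bp).

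All 3 members on the X chromosome had a peak, against 33.6% of all protein-coding genes there. Ndufb11 (1460 bp), Cox7b (1491 bp) and Ndufa1 (2331 bp) lay at percentiles 6.24, 6.62 and 23.0 of width among all protein-coding genes with a peak. X-linked genes with a peak had a median width of 2232 bp (n = 319) in general.

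**Figure D3:**
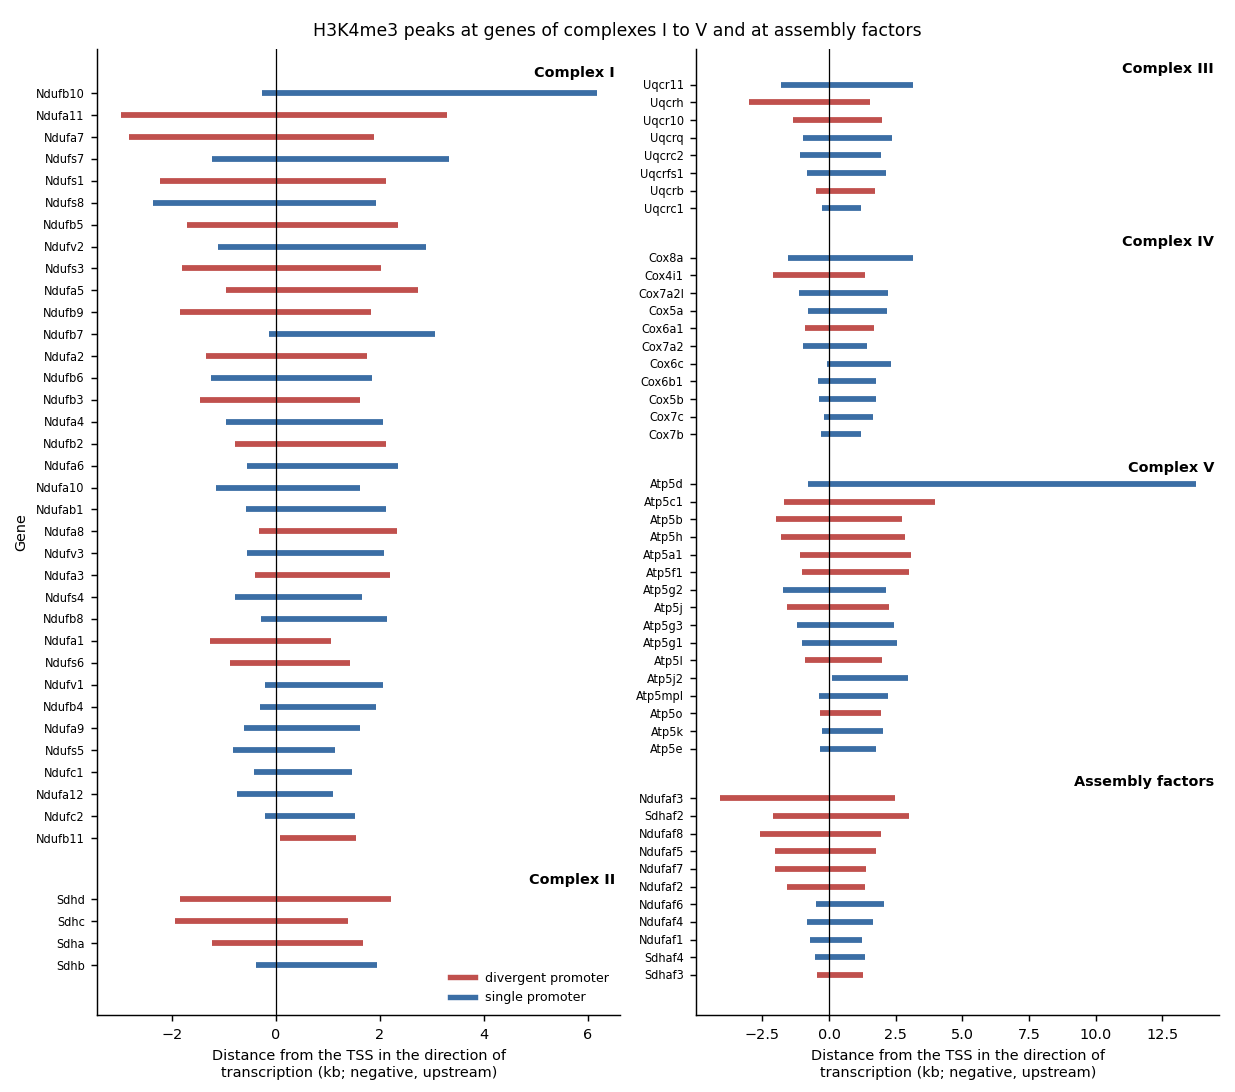
Extent of the H3K4me3 peak along the direction of transcription (horizontal axis, kb from the TSS, with different scales left and right) for genes of complexes I to V and assembly factors with a peak (vertical axis); red, divergent promoter, blue, single promoter. Atp5d reached 13750 bp downstream, the peaks of Ndufb11 and Atp5j2 began 80 and 94 bp downstream of the TSS, and the blue bar of Ndufs8 was longer upstream (2359 bp) than downstream (1934 bp).

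H3K4me3 extended mainly into the gene. At the 48 members with a peak and a single promoter, the median reach was 2056.5 bp on the downstream side (95% CI 1775 to 2179) and 659 bp on the upstream side (95% CI 411 to 833). The corresponding medians over 7329 protein-coding genes were 2177 and 752 bp. The downstream side was longer in 47 of 48, against 92.7% of all these genes. The exception was Ndufs8, with 2359 bp upstream and 1934 bp downstream. Reach was counted from the most upstream TSS at the peak, which lengthens the downstream side at genes with several starts. Where the TSSs at a member's peak lay within 50 bp of each other, the medians were 1930 bp downstream and 708 bp upstream.

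Because the genes were short, the peaks covered much of them. Median gene length was 7565 bp (95% CI 6474 to 9291), against 17414 bp over all protein-coding genes, and the peak covered a median of 25.5% of the gene, against 8.55%. The peaks of Ndufb10, Cox8a, Atp5k, Ndufaf3 and Ndufaf8 covered the whole gene. Peak width itself hardly varied with gene length (Spearman rho = 0.0259, Pearson r = −0.0839, 87 genes). It rose with the length of the island at the TSS (rho = 0.455, r = 0.302, 87 genes), with rho = 0.41 and r = 0.329 over 10398 protein-coding genes. These are correlations across genes of one list, in which island length and width share the base composition of the promoter, and genes are not replicates.

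Respiratory chain genes had an opposite-strand start of another gene near their own more often than protein-coding genes in general. An opposite-strand TSS of another protein-coding or lncRNA gene lay within 2 kb at 40 of 98 members (40.8%, 95% CI 31.6 to 50.7), against 20.2% of all protein-coding genes and 27.3% (95% CI 26.6 to 28.0) of those with an island. Among genes with a peak, the shares were closer, at 44.8% of 87 members (95% CI 34.8 to 55.3) and 31.8% of protein-coding genes. The 40 members were 16 genes of complex I, 3 of complex II, 3 of complex III, 2 of complex IV, 8 of complex V, 7 assembly factors and Atp5s. All 40 are called divergent here, and 31 of them stood head to head with a coding or lncRNA gene, while in the others the starts faced each other. The partner was a protein-coding gene in 33 cases and a lncRNA gene alone in 7. Of the 33, 27 stood head to head, with the starts back to back, which was 27.6% of members (95% CI 19.7 to 37.1) against 9.62% of all protein-coding genes and 13.2% of those with an island. In the other 6 the starts faced each other, so that the transcripts overlapped. Complex IV stood lowest, at 2 of 18 genes (11.1%, 95% CI 3.10 to 32.8), or 2 of its 11 subunit genes in general use. None of the 8 restricted paralogs had a divergent promoter (95% CI 0 to 32.4). Both the complex IV and the paralog interval held the 20.2% of all protein-coding genes and the 27.3% of those with an island.

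**Figure D4:**
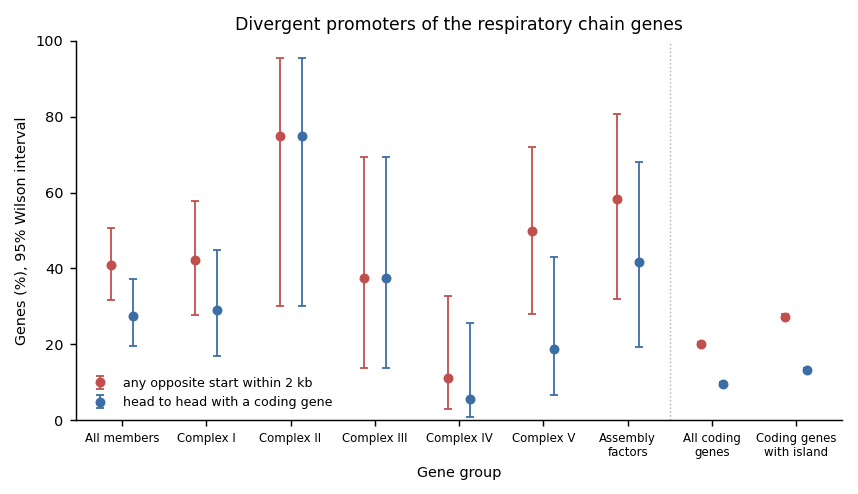
Share of genes with a divergent promoter (vertical axis, %, bars are 95% Wilson intervals) by gene group (horizontal axis), for any opposite start within 2 kb (red) and for head-to-head arrangement with a protein-coding gene (blue). Members stood at 40.8% and 27.6%, all protein-coding genes at 20.2% and 9.62%, and the intervals of the single complexes were wide.

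The distances between head-to-head starts were short. Over the 31 members with such a partner (coding or lncRNA), the median gap to the nearest one was 98 bp (95% CI 70 to 114), against 151 bp (n = 3131) over all protein-coding genes. Of 28 head-to-head coding partners, 17 lay within 100 bp and 26 within 200 bp. The shortest gaps were 3 bp, between Ndufs1 and the translation elongation factor gene Eef1b2 and between Ndufb11 and the RNA-binding protein gene Rbm10. Ndufa7 and the ribosomal protein gene Rps28 were 10 bp apart. The longest were 336 bp between Uqcr10 and Zmat5 and 1216 bp between Ndufa3 and the immune receptor gene Oscar.

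In complex I, further head-to-head partners were Tatdn1 for Ndufb9 (26 bp), Morn5 for Ndufa8 (52 bp), Fam126b for Ndufb3 (61 bp), Rnf113a1 for Ndufa1 (82 bp), Vmac for Ndufa11 (87 bp), the splicing factor gene Ik for Ndufa2 (99 bp) and Asb15 for Ndufa5 (131 bp). In complex II, Sdha was paired with Ccdc127 (29 bp) and Sdhd with Timm8b, a chaperone of the mitochondrial import pathway (98 bp). The complex III genes Uqcrb and Uqcrh were paired with Gm10767 (37 bp) and Lrrc41 (198 bp). Cox4i1 faced away from Emc8 (101 bp) and Gm27021 (143 bp). In complex V the partners were Haus1 for Atp5a1 (70 bp), Kin for Atp5c1 (114 bp) and Kctd2 for Atp5h (166 bp).

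The assembly factors with a head-to-head coding partner were Ndufaf7 with Cebpz (70 bp), Sdhaf2 with the cleavage factor gene Cpsf7 (84 bp), Ndufaf5 with Esf1 (85 bp), Ndufaf2 with the DNA repair gene Ercc8 (115 bp) and Ndufaf8 with Tepsin (197 bp). The 6 members with overlapping starts were Ndufs6 with Mrpl36 (29 bp), Ndufb5 with Mrpl47 (76 bp), Ndufs3 with Kbtbd4 (84 bp), Ndufa13 with the testis kinase gene Tssk6 (374 bp), Atp5j with Gabpa (379 bp) and Atp5f1 with Wdr77 (730 bp). Mrpl36 and Mrpl47 encode proteins of the mitochondrial ribosome. Gabpa encodes the ETS factor named above as a regulator of these genes.

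In 31 of the 33 cases the partner's start was reached by the member's own peak. The exceptions were Ndufa3, whose peak stopped short of Oscar, and Ndufa13, which had no peak. In all, 34 of 87 member peaks (39.1%, 95% CI 29.5 to 49.6) reached the starts of several protein-coding genes, against 23.7% of all protein-coding genes with a peak. In 3 of them, at Ndufaf3, Ndufb10 and Atp5d, no coding gene was divergent. Median width was 3669 bp (n = 39, 95% CI 2918 to 4056) at divergent and 2623 bp (n = 48, 95% CI 2315 to 3020) at single member promoters. Over all protein-coding genes the values were 3765 and 3013 bp. Where the peak reached the start of only 1 protein-coding gene, the medians were 2620 bp (n = 7, 95% CI 1728 to 4713) at divergent and 2593 bp (n = 46, 95% CI 2283 to 2984) at single member promoters, which is a gap within both intervals. Neither the histone mark nor its width can be assigned to either gene of a pair.

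Motifs were searched by their letters on both strands of 1 promoter of 300 bp per gene, from 250 bp before the most upstream TSS of a coding transcript. The NRF1 core (GCGCATGC) was found at 11 of 98 members (11.2%, 95% CI 6.38 to 18.99), against 3.51% of all protein-coding promoters and 5.02% of those with an island. The ERR element (AAGGTCA) was found at 10 (10.2%, 95% CI 5.64 to 17.8), against 4.02% and 2.90%. The ETS core (CCGGAAG) was found at 18 (18.4%, 95% CI 11.9 to 27.2), against 11.3% and 15.7%, and the YY1 core (ATGGCGG) at 9 (9.18%, 95% CI 4.91 to 16.5), against 5.01% and 6.99%. For the ETS and YY1 cores the interval held the share among island promoters. For YY1 this depended on the promoter searched: with every TSS of the gene included, the core was found at 17 members (17.3%, 95% CI 11.1 to 26.0), against 7.32% of all protein-coding genes and 10.3% of those with an island, which lay below the interval.

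Among the general promoter elements, the GC box (GGGCGG) was found at 44 members (44.9%, 95% CI 35.4 to 54.8), against 45.3% of all protein-coding promoters and 62.4% of those with an island. The share among members was thus that of all genes and below that of island promoters. The CCAAT box (CCAAT) was found at 36 (36.7%, 95% CI 27.9 to 46.6), against 38.7% and 38.1%. The TATA box (TATAAA) was found at 10 (10.2%, 95% CI 5.64 to 17.8), against 12.5% and 7.42%. The cAMP response element (TGACGTCA) was found at 5 (5.10%, 95% CI 2.20 to 11.4), against 2.52% and 3.23%. For these 3 the interval held both shares. A match is a run of letters and not a site shown to be bound, and no motif contains another, although the YY1 core and the GC box share the letters GGCGG.

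**Figure D5:**
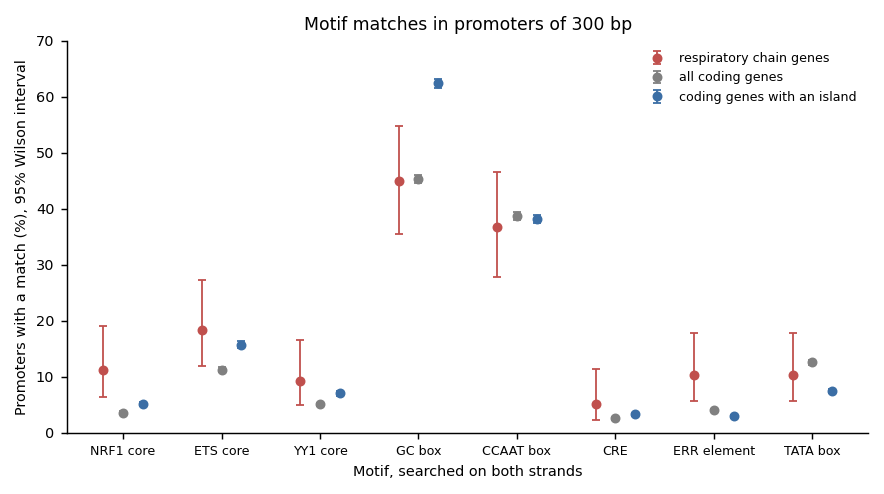
Share of promoters with a match to each motif (vertical axis, %, bars are 95% Wilson intervals; horizontal axis, motif) in the respiratory chain genes, in all protein-coding genes and in those with a CpG island. The NRF1 core (11.2% against 5.02% of island promoters) and the ERR element (10.2% against 2.90%) lay above, and the GC box (44.9% against 62.4%) below, the island promoters.

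The NRF1 core was present at Ndufa11, Ndufa6, Sdhb, Uqcr11, Cox6a1, Atp5g2, Atp5l, Atp5k, Ndufaf5 and Ndufaf4, all with a peak, and at the testis paralog Cox8c, without one. The ERR element was present at Ndufs1, Ndufb2, Ndufb4, Ndufs5, Sdhd, Uqcrq, Atp5g3, Atp5l, Atp5mpl and Atp5e. It was found at 0 of 12 assembly factors (95% CI 0 to 24.25) and 0 of 8 restricted paralogs (95% CI 0 to 32.4). Both intervals held the 4.02% of all protein-coding promoters and the 2.90% of those with an island. In the window from 500 bp before to 100 bp after the TSS, 1 of the 8 restricted paralogs had it. Both an NRF1 and an ETS match were found at Uqcr11, Atp5l and Cox6a1 (3.06% of members, 95% CI 1.05 to 8.62, against 0.966% of island promoters). At least 1 of the NRF1, ETS and ERR motifs was present at 31 members (31.6%, 95% CI 23.3 to 41.4), against 22.2% of island promoters (95% CI 21.5 to 22.8). Peak width differed by less than its intervals with and without them, with a median of 2999.5 bp (n = 30, 95% CI 2458 to 3832) and 2984 bp (n = 57, 95% CI 2623 to 3367).

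The neighbouring genes of the pathway gave a similar picture. Of 36 further assembly factors outside the naming rule, 36 had a peak (95% CI 90.4 to 100). The share was 49.4% over all protein-coding genes and 70.2% over those with an island. The median width at these assembly factors was 2879 bp. Surf1, a complex IV assembly factor whose peak reached the starts of 4 protein-coding genes, had the widest at 12080 bp, and Nubpl, an iron-sulfur factor for complex I, the narrowest at 1151 bp. Cyc1, cytochrome c1 of complex III, had a peak of 11306 bp shared by 3 genes, and Cycs, the somatic cytochrome c gene, one of 2346 bp. Cyct, the testis cytochrome c gene, had none and lay 9182 bp from the nearest peak.

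Of 20 regulators of respiratory chain genes and of mitochondrial DNA, 18 had a peak (90%, interval 69.9 to 97.2). The interval lay above the 49.4% of all protein-coding genes. It held the 70.2% of those with an island, and nearly all of the regulators had an island. The count thus did not set them apart from island genes. Yy1 had a peak of 5707 bp, Gabpb1 5410 bp, Nrf1 4327 bp, Esrra 3899 bp and Gabpa 3820 bp. Ppargc1a, the coactivator PGC-1alpha, had a peak of 3332 bp without a CpG island and with 6 CpGs around its TSS. The genes without a peak were Esrrb and Esrrg, relatives of Esrra with restricted expression.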

How the data were processed

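H3K4me3 ChIP-seq was made from 3 replicates of C127 cells. The deposited list holds genomic positions (chromosome, start and end, in bp on mm10) and no counts, signal or score. The authors aligned reads to mm10 with bowtie2, kept uniquely mapped reads, removed PCR duplicates with SAMtools, called peaks with MACS in each replicate against a matched control, kept regions found in every replicate, and merged neighbouring ones. The smallest gap left was 251 bp. Merging joins close promoters into 1 peak and so raises widths. The submitters' processing notes name Bowtie2, SAMtools and MACS2, with versions not given in the sources used here. Whether the replicates came from separate cultures was not needed, as no value per replicate is in the list.

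Start positions were converted to count from 1. A gene had a peak if one lay within 250 bp of any of its TSSs (52518 TSSs, GENCODE vM21 basic), and the widest was used. A divergent promoter had an opposite-strand TSS of another protein-coding or lncRNA gene (9603 lncRNA genes) within 2 kb. Islands (177750, or 21349 by stricter limits), motifs and recurring 32-base words were computed from the RefSeq genome GRCm38.p6. RefSeq starts were matched by symbol for 78 members. No test was run, since the list has no replicate values, and groups are described by counts and medians beside all protein-coding genes. The tools were numba 0.67.0, matplotlib 3.10.9, scipy 1.17.1, pandas 2.3.3 and numpy 2.4.6 under Python 3.11.15, and the scripts were tested on simulated data.

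The members and lists were chosen with earlier results of these data known. Named by rule were members without a peak, paralog pairs, the 3 widest and 3 narrowest peaks of each group, Atp5g1 to Atp5g3, members divergent from a coding gene, those with a peak reaching 3 coding genes, those with an island and no peak, and recurring promoters. The complex I core subunits and the F1 group, the genes listed by motif and the named pathway genes were chosen after their values were seen. Alternatives were other TSS distances, 1 TSS per gene, a minimum width, stricter islands, other divergence rules and other motif windows. Results for a few genes and partners were left out.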

Additional observations from a re-analysis of the deposited data

How the results depend on the processing

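Of 104 alternative values, 98 were counted as unchanged, 6 as moved and 0 as reversed. Each was a single share, count or median, so the count does not cover the order of the complexes. That order did not hold among peaks that reach 1 coding gene. There the median fell from 3726.5 to 2880 bp for complex V and from 2918 to 1953 bp for the assembly factors, and both were counted as unchanged. The median member width was 2620 bp over peaks that reach 1 coding gene. The share of members with an island was 87.8% by the stricter limits. With any TSS of the gene, the YY1 core was found at 17.3% of members (95% CI 11.1 to 26.0), above the 10.3% of island promoters searched in the same way, whereas at 1 promoter per gene the interval held the island share. The cause was not tested. In the window from 500 bp before to 100 bp after the TSS, the GC box was found at 55.1%, the CCAAT box at 54.1% and the TATA box at 19.4%, against 70.6%, 55.5% and 17.2% of island promoters. A longer stretch holds more matches by construction. The share of members with a peak ran from 87.8% (distance 0 bp, without Ndufb11) to 90.8% (1000 bp, or RefSeq starts added). Added after the data were seen were RefSeq starts, leaving out chromosome X (median width 3038 bp), and head-to-head pairs only. Leaving out a replicate was not run, since the list merges all 3. No paired analysis was possible because the results come from no test and the list carries no replicate values.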
